A study of Saccharomyces cerevisiae with 36 samples.

Results

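The comparison set the transcript response to ethanol of the budding yeast strain labelled YPS163 MATa beside that of the strain labelled YPS163, whose title and genotype name no mating type. Both were measured 30 min after ethanol was added to 5% by volume to log-phase cultures in rich medium (YPD). Each array carried RNA of the ethanol-treated culture and of the unstressed culture of the same strain in 2 dyes, so a value is the log2 ratio of 30 min in ethanol over unstressed cells. The members are 5 of the 36 arrays of the series: YPS163 MATa arrays 1 and 2, and YPS163 arrays 1 to 3. A difference is the mean log2 ratio of YPS163 MATa minus that of YPS163, so a negative difference means a response lower in YPS163 MATa.

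YPS163 is a wild isolate. The labels give YPS163 MATa no further allele, do not say how it was made or whether it is 1 clone, and state the ploidy of neither strain. The other strains measured at 30 min were YPS163 MATa hap1D (deleted for HAP1, a haem-dependent transcription factor), a strain titled YPS163 msn2D whose genotype label reads YPS163 MATa msn2D (deleted for MSN2, a transcription factor of the general stress response), the wild strain M22 and the laboratory strain DBY8268. Their arrays enter the estimate of spread and serve to place the genes that differed. The HAP1 spot had no value on any hap1D ethanol array, and the MSN2 spot had none on any msn2D array. No array set unstressed YPS163 MATa beside unstressed YPS163, so a different level before ethanol and a different level after it cannot be told apart in any result below.

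In budding yeast the mating-type locus sets which cell type a cell is. Cells with the a allele alone express the a-specific genes, such as the receptor for alpha-factor and the exporter of a-factor. Cells with the a or the alpha allele alone also express the haploid-specific genes, which build the pheromone signalling pathway. Cells with both alleles make a repressor that turns the haploid-specific genes off, and they can enter meiosis. Ethanol at a few percent stresses membranes and proteins and is known to induce chaperones, trehalose metabolism and antioxidant enzymes while ribosome production falls.

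The third YPS163 MATa ethanol array was left out. As deposited its column correlated at 0.164 across genes with the mean of arrays 1 and 2, and at 0.747 once moved by 1 row, while each of the other 17 ethanol arrays at 30 min matched its own group best with no move, at 0.86 to 0.962. The move did not bring every row into line. HSP26 then stood at 6.52, against 7.06 and 6.48 on arrays 1 and 2, but GLK1 at 1.46, against 6.79 and 6.74. Single values from the moved array are therefore uncertain. Results with it moved are given beside the counts below.

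Most of the ethanol response was shared. In YPS163 MATa 2826 of 5444 genes (51.9%) changed with ethanol, 24.3% up and 27.6% down. In YPS163 3211 of 5324 (60.3%) changed, 30.4% up and 30% down. Of the 4867 genes with values on at least 2 arrays of each strain, 1107 rose in both, 1186 fell in both, 4 rose in YPS163 MATa and fell in YPS163, and 5 fell in YPS163 MATa and rose in YPS163. Group means correlated at 0.942 across the 4867 genes, which share their arrays and are not independent replicates. The replicate arrays of YPS163 MATa correlated at 0.904 and those of YPS163 at 0.838 to 0.927, and arrays of different strains at 0.843 to 0.922, so the strains were about as alike as replicates. The SD of the mean log2 ratios over genes was 1.11 in YPS163 MATa and 1.17 in YPS163.

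The genes that respond most in both strains did not pass the test of the difference. RGI1, a gene of respiratory growth, reached 8.72 and 9.06 in YPS163 MATa and 7.89, 8.18 and 7.94 in YPS163. HSP26, a small heat shock protein, reached 7.06 and 6.48 in YPS163 MATa and 7.24, 7.4 and 8.47 in YPS163, a difference of -0.93 ± 0.43 (SE; 95% interval -1.85 to -0.02, adjusted p = 0.687). Their arrays separate by strain in the case of both genes, RGI1 higher and HSP26 lower in YPS163 MATa, but neither passed the test. Of 86 ribosome biogenesis genes 85 fell in each strain, and 0 of the 86 differed, with a median difference of 0.06. Of 117 ribosomal protein genes 109 fell in YPS163 MATa and 115 in YPS163, and 0 differed, also with a median of 0.06. The 26 proteasome, 25 ergosterol and 37 respiratory chain genes tested also had 0 calls each. With 0.74% called over all genes, 0 calls in lists of these sizes do not set them apart. In the proteasome list 21 of 26 differences lay below 0. Of the ergosterol differences 19 of 25 lay above 0, and of the respiratory chain differences 23 of 37. Over all 4867 genes 36 differed by limma's test at an adjusted p under 0.05, and the median difference was -0.02.

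**Figure D1:**
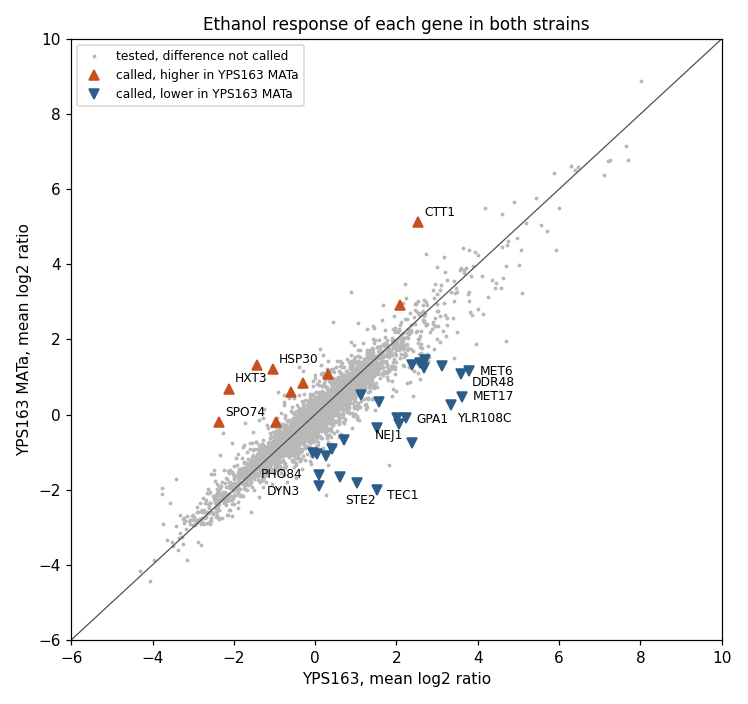
Mean log2 ratio at 30 min in 5% ethanol over unstressed cells in YPS163 MATa (vertical axis, 2 arrays) against that in YPS163 (horizontal axis, up to 3 arrays), 1 point per gene tested. The line marks equal responses, upward triangles are the 10 genes with a higher response in YPS163 MATa and downward triangles the 26 with a lower one.

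The response was lower in YPS163 MATa for 26 genes, 0.534% of those tested, and higher for 10, 0.205%, together 0.74%. The 5 largest on the lower side were TEC1, MET17, FMP23, YLR108C and STE2, and the 5 largest on the higher side HXT3, YDR344C, CTT1, HSP30 and SPO74. In all 36 the arrays of the strains did not overlap, as in 949 of the 4867 genes tested (19.5%), and the 36 were picked for their difference. Of the 26 lower genes, 4 fell in YPS163 MATa and rose in YPS163, 6 fell in YPS163 MATa alone by the test, 8 rose in YPS163 alone by the test, and 8 rose in both. Of the 10 higher genes, 4 rose in YPS163 MATa and fell in YPS163, 3 fell in YPS163 alone by the test and 3 rose in both. A difference over 1 in size was found for 138 genes, of which 31 passed the test, and the median 95% interval of a difference was ± 0.56.

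These counts depend on the spread being estimated over all 26 replicated arrays of the series. With only the 5 arrays 1 gene was called, TEC1, and 222 had an unadjusted p under 0.05 (342 in the fit over 26 arrays). Scaling every array to the same spread left 5 calls. With the third YPS163 MATa array moved by 1 row 71 genes were called, 34 of the 36 among them. Without YPS163 MATa array 1 the higher genes numbered 5 and the genes changed in YPS163 MATa 1784. Without YPS163 MATa array 2 the count of differences was 13, without YPS163 array 2 it was 23 and without YPS163 array 3 it was 15. The sign of each of the 36 differences was kept in every alternative in which it was tested. For most alternatives this was fixed in advance. Arrays that do not overlap keep the sign when 1 is left out, and a new estimate of spread leaves the difference unchanged.

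**Figure D2:**
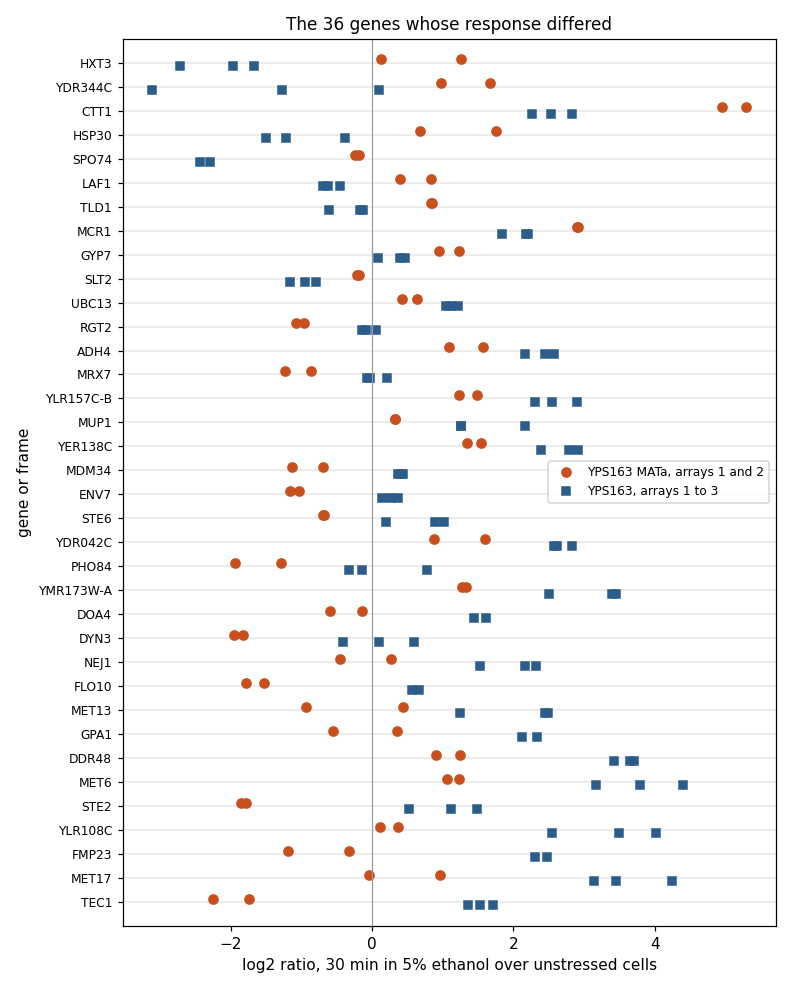
Log2 ratio of ethanol over unstressed cells on each array for the 36 genes whose response differed, ordered by the difference. Circles are the 2 YPS163 MATa arrays and squares the YPS163 arrays, and in each row the circles lie on 1 side of the squares.

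TEC1 (YBR083W), a transcription factor that works with Ste12 in filamentous growth, had the largest difference. Its log2 ratios were -1.75 and -2.26 in YPS163 MATa, against 1.35, 1.53 and 1.71 in YPS163. It fell with ethanol in YPS163 MATa and rose in YPS163, with a difference of -3.54 ± 0.41 (SE; limma adjusted p = 4.37e-05), 11.6-fold. TEC1 was called in each of the 17 alternatives.

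STE2 (YFL026W), the alpha-factor receptor and an a-specific gene, had -1.78 and -1.85 in YPS163 MATa, against 0.52, 1.48 and 1.11 in YPS163. It too moved in opposite directions, with a difference of -2.85 ± 0.30 (adjusted p = 4.33e-05). STE6 (YKL209C), the exporter of a-factor, followed with -0.69 and -0.68 in YPS163 MATa, against 0.2, 1.01 and 0.89 in YPS163. Its difference of -1.39 ± 0.31 passed narrowly (adjusted p = 0.0469).

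GPA1 (YHR005C), the G protein alpha subunit of the pheromone pathway and a haploid-specific gene, had -0.56 and 0.35 in YPS163 MATa, against 2.34 and 2.12 on the YPS163 arrays with a value. It rose in YPS163 and did not change by the test in YPS163 MATa, a difference of -2.34 ± 0.41 (adjusted p = 0.0102). NEJ1 (YLR265C), a regulator of DNA end joining that cells with both mating-type alleles repress, had -0.45 and 0.26 in YPS163 MATa, against 1.52, 2.32 and 2.17 in YPS163. The difference was -2.10 ± 0.32 (adjusted p = 0.00405).

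Only 10 of the 21 a-specific and haploid-specific genes could be tested, and the difference was below 0 for all 10 of them. Values present on the YPS163 arrays alone decided which were tested, so the 10 may not stand for the 21. Of the 4 a-specific genes tested 2 were lower in YPS163 MATa and 2 did not pass, with a median difference of -1.89. Of the 6 haploid-specific genes 2 were lower and 4 did not pass, with a median of -1.15. Over all genes 0.534% were lower, 53.3% of differences lay below 0 and the median was -0.02. Among those that did not pass, SST2, the regulator that ends pheromone signalling, differed by -1.21 ± 0.30 (adjusted p = 0.0749). BAR1, the protease that degrades alpha-factor, had -1.95 and -2.33 in YPS163 MATa, against -2.02 and 2.54 in YPS163, values that overlap. STE12, the transcription factor of the pheromone response, differed by -0.86 ± 0.41 (adjusted p = 0.695), STE5, the scaffold of the kinase cascade, by -0.88 ± 0.22 (adjusted p = 0.104), RDH54, a recombination protein, by -1.08 ± 0.37 (adjusted p = 0.342) and AFB1 by -0.15 ± 0.55 (adjusted p = 0.997).

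The other 11 had too few values in YPS163. All 21 had a value on both YPS163 MATa arrays, while on the YPS163 arrays 4 had none, 7 had 1 and 10 had 2 or 3. Not all of the 7 lay lower in YPS163 MATa. AXL1 (0.33 and 0.25, against -0.97 in YPS163), FUS3 (-0.5 and -0.81, against -1.21) and HO (-1.02 and -0.44, against -1.33) lay higher there. ASG7 (-1.07 and -0.74, against -1.04) overlapped, and AGA2, MFA1 and MFA2 lay lower, each against 1 YPS163 array. For the 8 a-specific genes 100% of spots had a value in YPS163 MATa and in hap1D, 83.3% in msn2D, 62.5% in M22, 83.3% in DBY8268 and 62.5% in YPS163. For the 13 haploid-specific genes the shares were 100% in YPS163 MATa and in hap1D, 79.5% in msn2D, 69.2% in M22, 79.5% in DBY8268 and 46.2% in YPS163. For the 4 alpha-specific genes they were 75% in YPS163 MATa and in hap1D, 91.7% in msn2D and 33.3% in YPS163. M22 had 58.3% and DBY8268 66.7% of these. Over all spots YPS163 MATa had a value on 91.5%, hap1D on 94.1% and msn2D on 95.3%. Values were fewer over all spots in M22 (86.6%), DBY8268 (88.6%) and YPS163 (83.3%). Meiosis and sporulation genes, which serve cells with both alleles, had a value on 82.2% of spots in YPS163 MATa and 54.8% in YPS163. Their shares were 85.9% in hap1D, 90.4% in msn2D, 68.9% in M22 and 80.7% in DBY8268.

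FAR1, which arrests the cycle in pheromone, STE4 and STE18, the other G protein subunits, and RME1, a repressor of meiosis, were the 4 without any value in YPS163. In YPS163 MATa their log2 ratios were -1.79 and -1.89 for FAR1, -0.67 and -0.53 for STE4, 0.41 and -0.02 for STE18 and 0.31 and 0.3 for RME1. A missing value has no stated reason in the sources used here, and since every value is a ratio to the strain's own unstressed cells, these markers bear on the mating type label only through responses and missing values. Of the alpha-specific genes, SAG1, the alpha-agglutinin, had no value on either YPS163 MATa array used, and MF(ALPHA)1, an alpha-factor gene, had values of -2.54 and -1.13 there and none in YPS163. In RNA from whole cultures, fewer cells that express a gene and less RNA of it per cell cannot be told apart.

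**Figure D3:**
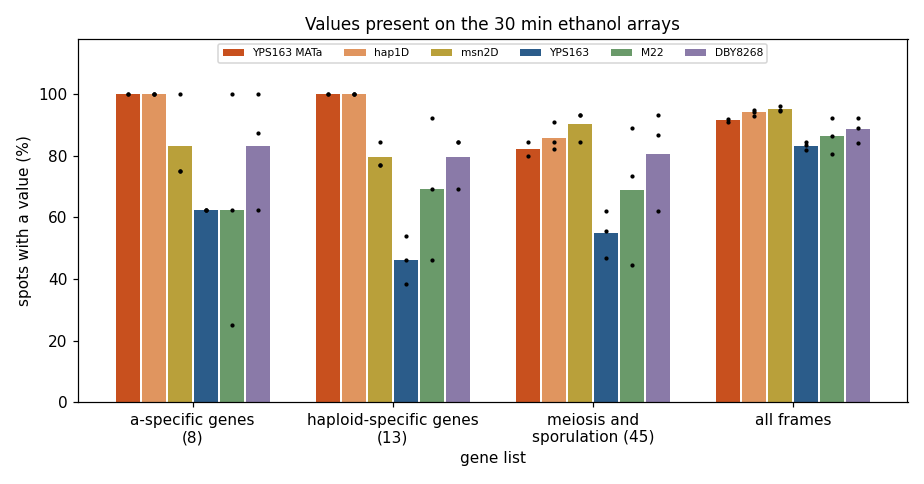
Share of spots with a value on the 30 min ethanol arrays (vertical axis, percent) for the a-specific, haploid-specific and meiosis genes and for all frames. Bars are strains, with the share over all their arrays, and points are single arrays: YPS163 MATa and hap1D have every a-specific and haploid-specific value, and YPS163 has 62.5% and 46.2%.

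Of 20 tested genes of the pheromone response 0 passed, against 0.74% over all genes, with a median difference of -0.14. FUS1, a cell fusion gene, had the largest of these differences, -3.15 ± 0.76 (adjusted p = 0.0873), with a mean of -1.35 in YPS163 MATa and 1.80 in YPS163. Of 10 flocculation and adhesion genes 2 were lower, TEC1 and FLO10, against 0.534% over all genes. FLO10 (YKR102W), a cell surface flocculin, had -1.53 and -1.78 in YPS163 MATa, against 0.66 and 0.57 on the YPS163 arrays with a value. It differed by -2.27 ± 0.42 (adjusted p = 0.013), but was not called once the third YPS163 MATa array, at 0.13, was added.

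Methionine genes formed the next group. They take up sulfur, build homocysteine and turn it to methionine, and 4 of 29 tested members of the sulfur and methionine list were lower in YPS163 MATa while 25 did not pass. Over all genes 0.534% were lower. The median over the list was -0.29, and 27 of the 29 differences lay below 0, against 2592 of 4867 (53.3%) over all genes. MET17 (YLR303W), the sulfhydrylase that makes homocysteine, had 0.96 and -0.04 in YPS163 MATa, against 3.14, 3.45 and 4.25 in YPS163. MET17 rose in YPS163 and did not change by the test in YPS163 MATa, a difference of -3.15 ± 0.35 (adjusted p = 4.33e-05), 8.9-fold.

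MET6 (YER091C), the methionine synthase, rose in both strains but less in YPS163 MATa, at 1.23 and 1.06, against 3.17, 3.79 and 4.4 in YPS163. The difference was -2.64 ± 0.34 (adjusted p = 0.00016). MET13 (YGL125W), a methylenetetrahydrofolate reductase that supplies the methyl group, had 0.44 and -0.94 in YPS163 MATa, against 1.24, 2.44 and 2.49 in YPS163. MET13 differed by -2.31 ± 0.41 (adjusted p = 0.00713). MUP1 (YGR055W), the high-affinity methionine permease, had 0.33 and 0.32 in YPS163 MATa, against 1.26, 1.26 and 2.17 in YPS163, a difference of -1.24 ± 0.26 (adjusted p = 0.0222).

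At 30 min MET6 had -1.54, -0.98 and -0.66 in hap1D, 2.45, 1.5 and 1.9 in msn2D, -2.12, -2.11 and -1.66 in M22 and -2.6, -2.62 and -1.94 in DBY8268, so it rose in msn2D and lay below 0 in the other 3. MET17 had -0.65, -0.78 and -0.71 in hap1D and -0.09, -0.61 and -0.55 in msn2D, below both YPS163 MATa arrays. In the single YPS163 time course MET6 stood at -2.16 at 15 min, 2.85 at 45 min and 4.21 at 60 min, and MET17 at 0.22, 3.21 and 4.6 at the same times. Both genes thus crossed from low to high between 15 and 30 min in YPS163, and for YPS163 MATa 30 min is the only time. The log-phase arrays are read as YPS163 over DBY8268, because the 92 genes with a mean below -4 lacked a value on 33.3% of YPS163 spots at 30 min and on 6.88% of DBY8268 spots. Their titles name DBY8268 before YPS163, and on the arrays titled YPS163 MATa before hap1D HAP1 stood at 3.9 and 3.04, the first-named strain over the second, so going by title order would turn the sign. On this likely but unsettled reading MET6 lay at -3.28, -3.07 and -2.93 and MET17 at -3.89, -2.85 and -3.96, and no such array exists among those used for YPS163 MATa.

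**Figure D4:**
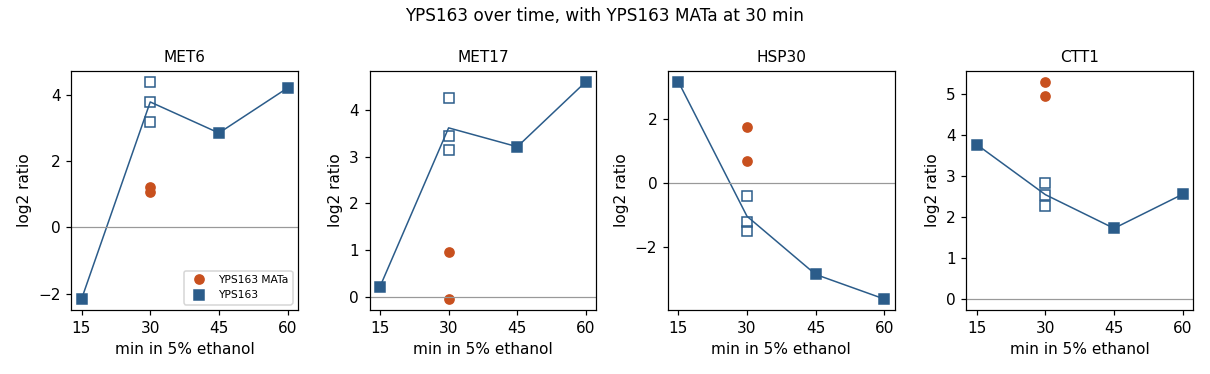
Log2 ratio of ethanol over unstressed cells (vertical axis) against minutes in 5% ethanol (horizontal axis) for MET6, MET17, HSP30 and CTT1. Circles are the 2 YPS163 MATa arrays at 30 min, open squares the 3 YPS163 arrays at 30 min, filled squares the single YPS163 arrays at 15, 45 and 60 min, and the line joins YPS163 means: MET6 lies at -2.16 at 15 min and HSP30 at -3.63 at 60 min.

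Phosphate and nutrient sensing gave 1 or 2 genes each. PHO84 (YML123C), the high-affinity phosphate transporter, had -1.29 and -1.94 in YPS163 MATa, against -0.33, -0.15 and 0.77 in YPS163. It fell in YPS163 MATa and differed by -1.71 ± 0.31 (adjusted p = 0.00713), the 1 call among 24 phosphate genes (median -0.15). SPL2, a phosphate regulator that limits low-affinity uptake, rose in both, at 2.05 and 1.68 in YPS163 MATa and 4, 4.2 and 3.66 in YPS163, and its difference of -2.09 ± 0.59 did not pass (adjusted p = 0.167). Over all genes tested 0.205% were higher and 0.534% lower. Of 14 glucose transport and phosphorylation genes 1 was higher and 1 lower, with a median of 0.33.

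The lower of these was RGT2 (YDL138W), a glucose sensor of the plasma membrane, with -0.96 and -1.08 in YPS163 MATa, against -0.14, 0.06 and -0.09 in YPS163. The difference was -0.96 ± 0.19 (adjusted p = 0.0166). The higher was HXT3 (YDR345C), a low-affinity hexose transporter, with 1.26 and 0.12 in YPS163 MATa, against -1.67, -1.97 and -2.72 in YPS163. HXT3 fell in YPS163 and did not change by the test in YPS163 MATa, a difference of 2.81 ± 0.52 (adjusted p = 0.00757), 7.01-fold and the highest of all. Its neighbour YDR344C, for which no role is given here, moved with it, at 1.67 and 0.98 in YPS163 MATa and -1.27, 0.09 and -3.11 in YPS163. The YDR344C difference was 2.75 ± 0.59 (adjusted p = 0.0388), with a wide spread among the YPS163 arrays. The hexose transporters are a family of close copies, and cross-hybridisation between them was not tested. HXT1, another low-affinity transporter, fell in both strains and differed by 0.11 ± 0.53 (adjusted p = 0.997).

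Of 47 general stress genes 1 was higher, 1 lower and 45 did not pass, with a median of 0.14. Of 25 heat shock and chaperone genes 1 was higher and 24 did not pass, with a median of -0.31 and 23 of 25 differences below 0. Over all genes tested 0.205% were higher and 0.534% lower, and 53.3% of differences lay below 0. CTT1 (YGR088W), the cytosolic catalase T that removes hydrogen peroxide, rose in both strains, to 5.29 and 4.95 in YPS163 MATa, against 2.26, 2.83 and 2.53 in YPS163. The difference was 2.58 ± 0.37 (adjusted p = 0.000511), 5.98-fold.

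DDR48 (YMR173W), a gene of DNA damage and stress responses, went the other way, with 1.24 and 0.91 in YPS163 MATa, against 3.65, 3.42 and 3.71 in YPS163. DDR48 had the lowest adjusted p of the 36, 1.8e-06, with a difference of -2.52 ± 0.22. YMR173W-A, a frame numbered after DDR48 for which no role is given here, had 1.33 and 1.27 in YPS163 MATa, against 3.45, 2.5 and 3.4 in YPS163. Its difference was -1.82 ± 0.30 (adjusted p = 0.00405), and probe positions were not used here, so whether both spots read 1 transcript was not tested.

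HSP30 (YCR021C), a plasma membrane heat shock protein that lowers the activity of the proton pump, had 0.68 and 1.75 in YPS163 MATa, against -1.22, -1.5 and -0.39 in YPS163. HSP30 rose in YPS163 MATa and fell in YPS163, a difference of 2.25 ± 0.52 (adjusted p = 0.0452), the last to pass but one of the 36. With the third YPS163 MATa array moved, where it stood at -0.02, it was not called, and it passed in 5 of 17 alternatives, the fewest together with UBC13. In the YPS163 time course it stood at 3.18 at 15 min, -2.86 at 45 min and -3.63 at 60 min. HSP104, a disaggregase, reached a mean of 3.23 in YPS163 MATa and 5.09 in YPS163, and its difference of -1.86 ± 0.46 did not pass (adjusted p = 0.0756). HSP12, a membrane stress protein, differed by -0.48 ± 0.80 (adjusted p = 0.997).

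The remaining higher genes were less far apart. MCR1 (YKL150W), a mitochondrial cytochrome b5 reductase, had 2.91 and 2.9 in YPS163 MATa, against 2.21, 1.84 and 2.18 in YPS163, a difference of 0.83 ± 0.18 (adjusted p = 0.0373). SLT2 (YHR030C), the kinase of the cell wall integrity pathway, had -0.19 and -0.22 in YPS163 MATa, against -0.79, -1.17 and -0.95 in YPS163. SLT2 thus fell in YPS163 alone by the test, a difference of 0.77 ± 0.16 (adjusted p = 0.0222). It was the 1 call among 25 cell wall genes (median -0.13), against 0.74% called over all genes.

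GYP7 (YDL234C), a GTPase-activating protein that turns off the GTPase of vacuole fusion, had 1.23 and 0.95 in YPS163 MATa, against 0.39, 0.08 and 0.46 in YPS163. Its difference was 0.78 ± 0.16 (adjusted p = 0.0221). TLD1 had 0.84 and 0.85 in YPS163 MATa, against -0.17, -0.13 and -0.61 in YPS163, and LAF1 had 0.39 and 0.83 in YPS163 MATa, against -0.62, -0.45 and -0.69 in YPS163. Both rose in YPS163 MATa and fell in YPS163, with differences of 1.15 ± 0.20 (adjusted p = 0.0061) and 1.20 ± 0.25 (adjusted p = 0.0222). SPO74 (YGL170C), a component of the meiotic spindle pole body and the 1 call among 19 meiosis genes (median 0.06), had -0.18 and -0.24 in YPS163 MATa, against -2.29 and -2.44 on the YPS163 arrays with a value. It differed by 2.16 ± 0.34 (adjusted p = 0.0373). Over all genes 0.74% were called.

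The remaining lower genes had varied roles. Those that fell in YPS163 MATa included DYN3 (YMR299C), a light intermediate chain of dynein, at -1.83 and -1.95 in YPS163 MATa, against 0.59, 0.1 and -0.41 in YPS163, a difference of -1.98 ± 0.26 (adjusted p = 0.000315). MDM34 (YGL219C), a subunit of the tether between mitochondria and endoplasmic reticulum, had -0.69 and -1.14 in YPS163 MATa, against 0.41, 0.36 and 0.44 in YPS163. MDM34 was the fourth gene to fall in YPS163 MATa and rise in YPS163, beside TEC1, STE2 and STE6, with a difference of -1.32 ± 0.19 (adjusted p = 0.000915). ENV7 (YPL236C), a kinase of the vacuolar membrane, had -1.17 and -1.04 in YPS163 MATa, against 0.36, 0.14 and 0.27 in YPS163. ENV7 differed by -1.36 ± 0.22 (adjusted p = 0.00354), and MRX7, a mitochondrial protein, by -1.09 ± 0.23 (adjusted p = 0.0222).

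FMP23, another mitochondrial protein, had -0.33 and -1.19 in YPS163 MATa, against 2.47 and 2.31 on the YPS163 arrays with a value, a difference of -3.15 ± 0.51 (adjusted p = 0.00407). DOA4, a deubiquitinase, had -0.14 and -0.6 in YPS163 MATa, against 1.44 and 1.61 in YPS163, also on those arrays alone, a difference of -1.90 ± 0.42 (adjusted p = 0.0373). YLR108C, with no role given here, was among the most stable calls, at 0.37 and 0.11 in YPS163 MATa, against 3.49, 2.54 and 4.02 in YPS163. It differed by -3.11 ± 0.38 (adjusted p = 0.000137) and was called in 16 of 17 alternatives, as were MET17 and STE2.

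ADH4 (YGL256W), an alcohol dehydrogenase, rose in both strains, to 1.57 and 1.09 in YPS163 MATa, against 2.16, 2.45 and 2.57 in YPS163. It differed by -1.06 ± 0.21 (adjusted p = 0.0147). It was the 1 call among 19 genes of alcohol and acetate metabolism, against 0.74% called over all genes. YDR042C, with no role given here, differed by -1.44 ± 0.27 (adjusted p = 0.0107). UBC13, a ubiquitin-conjugating enzyme, had the smallest called difference, -0.59 ± 0.14 (adjusted p = 0.0439), with 0.63 and 0.42 in YPS163 MATa, against 1.11, 1.04 and 1.21 in YPS163. The frames YER138C and YLR157C-B, with no role given here, rose in both strains and differed by -1.25 ± 0.26 (adjusted p = 0.0222) and -1.22 ± 0.23 (adjusted p = 0.013).

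The hap1D arrays entered the test only through the shared estimate of spread. For 36 of the 36 genes the hap1D mean lay nearer to the YPS163 MATa mean than to the YPS163 mean, against 61.7% of the 4866 tested genes with a hap1D value. For the third YPS163 MATa array moved by 1 row this held for 32 of 35, against 58.9% of 4746. The 3 exceptions were HSP30, FLO10 and TLD1. These counts use the same means that chose the genes and are a description, with no test.

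TEC1 had -2.32, -1.93 and -1.84 in hap1D, and STE2 had -1.91, -1.81 and -1.59. SST2 had -1.82, -1.48 and -1.63 in hap1D, against -1.65 and -1.74 in YPS163 MATa, and these 3 genes lay in or near the YPS163 MATa range. Not all mating genes did: MFA1, an a-factor gene, had -1.37 and -1.22 in YPS163 MATa and -0.96, -0.67 and -0.61 in hap1D, and MFA2, the other, had -0.69 and -1.23 in YPS163 MATa and -0.39, -0.6 and -0.2 in hap1D, with no overlap. CTT1 reached 5.15, 4.26 and 4.32 in hap1D, and HXT3 had 1.49, 0.71 and 0.42. HSP30 went further, at 5, 4.29 and 3.84 in hap1D, above both YPS163 MATa arrays.

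The msn2D strain did not follow as a whole. Its mean lay nearer to YPS163 MATa for 21 of the 36 genes, against 52.5% of 4858 genes, and for M22 and for DBY8268 the count was 18 of 36 each, against 46.8% and 46.3%. TEC1 had 0.01, 0.97 and -0.49 in msn2D, STE2 had -0.72, 0.03 and 0, and GPA1 had 1.85, 1.21 and 1.71. None of the 3 genes overlapped with the YPS163 MATa arrays there, although the genotype label of msn2D also names MATa. HXT3, at -1.87, -2.7 and -2.49 in msn2D, lay with YPS163. CTT1, a target of Msn2 in background knowledge, had -0.56, 0.43 and 0.52 in msn2D, below YPS163 MATa and YPS163 alike.

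**Figure D5:**
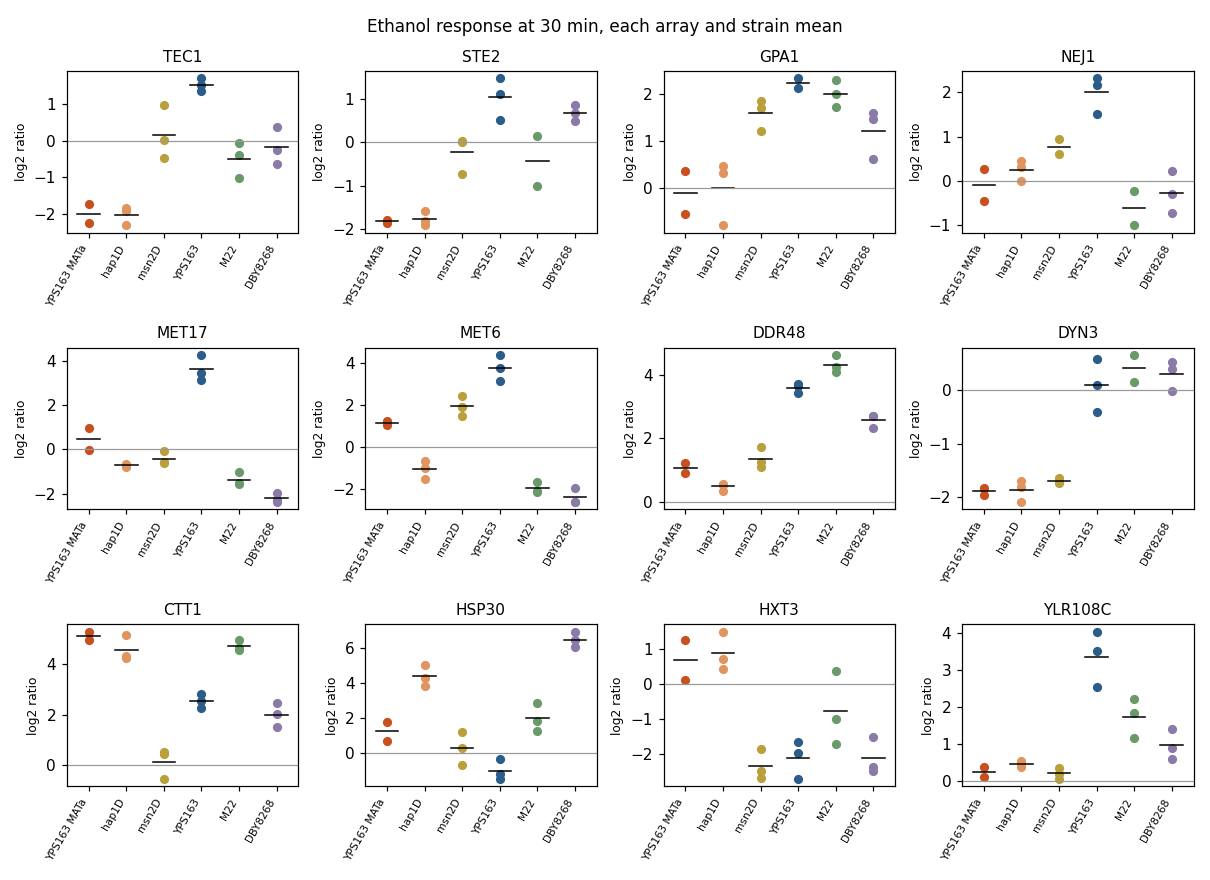
Log2 ratio of 30 min in 5% ethanol over unstressed cells (vertical axes, scales differ) for 12 of the genes that differed, in 6 strains. Points are arrays and bars strain means: hap1D lies with YPS163 MATa in TEC1, STE2, GPA1, NEJ1, DYN3, CTT1 and HXT3. The msn2D arrays lie with YPS163 MATa in DYN3, YLR108C and DDR48 but not in TEC1, GPA1, CTT1 or HXT3. In HSP30 they overlap both YPS163 MATa and YPS163.

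Over 4905 genes with nearly complete values, the 8 arrays of YPS163 MATa, hap1D and msn2D all lay below the 9 arrays of YPS163, M22 and DBY8268 for 25 genes and above them for 13. Of the 36 genes that differed, 8 were among the 25 (RGT2, MDM34, YLR108C, DDR48, YMR173W-A, DYN3, MRX7 and ENV7) and 0 among the 13. The YPS163 MATa and YPS163 arrays here are those that chose the 36, so these counts are a description, with no test. DYN3 had -1.83 and -1.95 in YPS163 MATa, -1.69, -1.8 and -2.09 in hap1D and -1.65, -1.73 and -1.71 in msn2D, while M22 had 0.66 and 0.16 and DBY8268 had 0.52, 0.39 and -0.01. On the single YPS163 array at 60 min DYN3 was at -2.45, ENV7 at -1.63, MDM34 at -0.95 and RGT2 at -1.35, as low as in the strains labelled MATa, while at 45 min DYN3 was at 0.35, ENV7 at 0.58, MDM34 at 0.75 and RGT2 at -0.73. The other 4 were not as low at 60 min, with YLR108C at 4.04, DDR48 at 3.76, YMR173W-A at 2.78 and MRX7 at -0.18. The labels name no print or hybridisation batch. Any batch that went with the strain cannot be told apart from it, so the part of array batches in these genes or in any of the 36 was not tested.

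Other genes known to vary with strain or with the deleted factors did not pass the test. AQY2, a water channel whose transcript fell in both, had -4.88 and -4 in YPS163 MATa, against -4.34, -3.9 and -3.96 in YPS163, a difference of -0.37 ± 0.26 (adjusted p = 0.981). CYB2, a lactate dehydrogenase, rose in both and differed by 0.07 ± 0.36 (95% interval -0.71 to 0.84). EDE1, an endocytosis scaffold, differed by -0.13 ± 0.22 (95% interval -0.60 to 0.34) and ELO1, a fatty acid elongase, by -0.01 ± 0.27 (95% interval -0.56 to 0.55). HAP1 itself differed by 0.52 ± 0.24 (adjusted p = 0.706), MSN2 by -0.24 ± 0.19 (adjusted p = 0.997) and MSN4 by 0.28 ± 0.33 (adjusted p = 0.997).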

How the data were processed

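The authors deposited a table of frames by arrays whose values were taken to be log2 ratios of both dyes, from their signs and medians. Normalization and spot filters are not stated in the labels. The ratio is read as ethanol over unstressed cells, which is likely but not certain: genes above 3 in YPS163 MATa were missing from 7.02% of the unstressed log-phase comparisons' spots, and genes below -2 from 1.61%. The table holds 6295 frames, 5830 of them matched to RefSeq gene names. Per the series design the experiments at a single time are biological triplicates, while 15, 45 and 60 min have a single array per strain. Array numbers gave the replicates, and arrays numbered 2 carry exchanged dyes. The fit held no dye term, and with the third YPS163 MATa array left out the dyes were not balanced alike in the compared strains.

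limma 3.58.1 in R 4.3.3 fitted 1 mean per group over 26 arrays of 9 groups, with the third YPS163 MATa array left out. Genes with at least 2 values in each strain were tested, adjusted by Benjamini-Hochberg, and called at an adjusted p under 0.05. On simulated data with independent noise the fit recovered 20.9% of 1.5-fold, 50.7% of 2-fold and 93.9% of 4-fold changes. Of its 118 calls 8 were false. A gene that did not pass may therefore still differ, even by 2-fold or more. Same-numbered arrays of the strains deviated oppositely (r = -0.207). With 2 arrays a strain this is a single contrast, so it cannot decide whether the numbers pair the strains, and no pairing was used.

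Named were called genes with complete, non-overlapping values (up to 15 a side), sign changes, called list members, mating genes and a fixed set; 6 called genes outside that rule were named after their values were seen. The comparison and the 35 gene lists were chosen with earlier results of these data known. The third array's alternatives, scaling, filters and leaving out each array are reported in the closing section. Promoter motifs were not analysed here, since no sequence was used.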

Additional observations from a re-analysis of the deposited data

Results flagged for a closer look

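The 36 genes below were marked because the test of the difference between the strains' ethanol responses passed; each value is the mean log2 ratio in YPS163 MATa minus that in YPS163. The mating and filamentation genes among them were lower in YPS163 MATa: TEC1 by -3.54, STE2 by -2.85, GPA1 by -2.34, FLO10 by -2.27, NEJ1 by -2.10 and STE6 by -1.39. Methionine and phosphate genes were lower too, MET17 by -3.15, MET6 by -2.64, MET13 by -2.31, PHO84 by -1.71 and MUP1 by -1.24. Stress and metabolic genes on the lower side were DDR48 at -2.52, YMR173W-A at -1.82, ADH4 at -1.06, RGT2 at -0.96 and UBC13 at -0.59. Organelle and transport genes there were FMP23 at -3.15, DYN3 at -1.98, DOA4 at -1.90, ENV7 at -1.36, MDM34 at -1.32 and MRX7 at -1.09. Frames with no role given here were YLR108C at -3.11, YDR042C at -1.44, YER138C at -1.25 and YLR157C-B at -1.22.

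On the higher side stood HXT3 at 2.81 and its neighbour YDR344C at 2.75, CTT1 at 2.58, HSP30 at 2.25 and SPO74 at 2.16. LAF1 at 1.20, TLD1 at 1.15, MCR1 at 0.83, GYP7 at 0.78 and SLT2 at 0.77 completed it. GPA1, FMP23, DOA4 and FLO10 lacked a value on YPS163 array 1, and SPO74 on YPS163 array 2.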

How the results depend on the processing

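The 36 calls (10 higher, 26 lower) depend mainly on how the spread is estimated and on array scaling. With only the 5 arrays compared 1 gene was called (0 higher, 1 lower by limma, 222 at an unadjusted p under 0.05). With the 30 min ethanol arrays of all strains the count was 26, 4 of them higher. With the replicate number as a block on those arrays it was also 26, 5 of them higher and 21 lower. Same-numbered arrays of YPS163, M22 and DBY8268 deviated together (r of 0.22 to 0.648, over 3 arrays a strain). Those of YPS163 and hap1D deviated oppositely (r of -0.349 to -0.245), and those of YPS163 and msn2D gave -0.138 to 0.0625. Those of YPS163 MATa and YPS163 deviated oppositely (-0.207), but only arrays 1 and 2 entered. That is a single contrast, so whether the numbers pair the compared strains was not settled. Against the same arrays without the block GPA1 (adjusted p = 0.0545), SPO74 (0.0679) and MET13 (0.0999) were no longer called, and MUP1, MRX7 and LAF1 became called. Scaling all arrays to the same spread left 5 (1 higher, 4 lower) and 1830 genes changed in YPS163 MATa, and quantile normalization left 6 (1 higher, 5 lower). Both settings also stretch the log-phase arrays that share the fit. Scaling the ethanol arrays alone, an alternative chosen after seeing the data, gave 18 (3 higher, 15 lower), 17 of the 36 among them.

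With the third YPS163 MATa array moved by 1 row the count was 71 (21 higher, 50 lower), and with it as deposited 54 (40 lower). Requiring 1 array in each strain gave 62 (22 higher, 40 lower). Leaving out each array gave 13 to 39 calls, 3 to 8 of them higher and 10 to 31 lower, and 1784 to 2884 genes changed in YPS163 MATa. Complete values (30 calls), median centring (37) and robust moderation (36) stayed within 1.5 times. TEC1 passed in 17 of 17 alternatives, STE2, MET17 and YLR108C in 16, and HSP30 and UBC13 in 5. None of the 36 changed sign, which was mostly fixed in advance, since their arrays did not overlap between the strains. Named genes that were not called changed sign 39 times, among them RDH54 (1.39), AQY2 (0.98) and CYB2 (-0.96) with the third array as deposited. The number of arrays limits precision, and intensities were not used. The promoter motif description was not run, since no sequence was used.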

Other observations

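YER138C and YLR157C-B share an annotated length of 5269 bases, and 23 frames of the table have that length. This set was chosen after its values were seen. Of the 19 that could be tested 2 were lower in YPS163 MATa and 17 did not pass, the difference was below 0 in all 19, and their median was -1.13, against -0.02 over all genes. Frames of equal length may be near-identical copies that share signal, so they are not separate measurements. At 30 min YER138C had 1.54 and 1.34 in YPS163 MATa, 0.91, 1.1 and 0.78 in hap1D, 2.9, 3.37 and 3.1 in msn2D, and 2.78, 2.39 and 2.91 in YPS163, so msn2D lay with YPS163. On the log-phase arrays, likely YPS163 over DBY8268, it stood at -5.78, -5.61 and -5.36.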
